A study of Danio rerio with 2 samples.

Results

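The miR-10 and miR-196 microRNAs (miRNAs) of whole zebrafish embryos at 48 hpf were examined in 1 small RNA library of Tbx5 depleted embryos (Tbx5 morphant library) and 1 of embryos injected with a control morpholino (MO-Ct library). Members were chosen by name, as every entry of the deposited values called miR-10 or miR-196 with any letter. This gave 8 of the 173 listed miRNAs (for example mir-10b, with 19521 and 21852 rpm, reads scaled to a common library total), namely miR-10a, miR-10b, miR-10c, miR-10d, miR-196a, miR-196b, miR-196c and miR-196d. All embryos were of the wild-type AB strain and received the morpholino, an antisense oligomer that blocks a transcript, at the 1-cell stage, and 50 embryos were collected at 48 hpf. The sample labels name 1.5 ng of MO-Tbx5a for the one library and 1.5 ng of MO-Ct for the other, while the study's text gives a higher dose of MO-Ct elsewhere. It also describes a mixture of MO-Tbx5a and MO-Tbx5b and a selection of embryos with the heartstring (hts) phenotype, known for defects of the heart and the pectoral fins. As small RNA libraries carry no Tbx5 mRNA, the depletion itself could not be checked in these data.

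miRNAs guide the repression of transcripts that pair with a short seed near their start. The miR-10 and miR-196 genes lie inside the clusters of hox genes, the transcription factors that give cells their position along the body axis, and they are transcribed in trunk and tail domains much like those of their hox neighbours. In zebrafish, miR-10 represses hoxb1a and hoxb3a in the spinal cord and acts in vessel sprouting. miR-196 represses hoxb8 transcripts in mouse, and in zebrafish it acts in axial patterning and in the start of the pectoral fin bud, the structure that depends on Tbx5.

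The 8 entries stand for 10 hairpin loci, since miR-10b and miR-196a each join 2 loci in 1 value. All 10 loci matched a gene of the RefSeq annotation of the GRCz12tu assembly. It was used for gene order only, because the deposited values carry no coordinates. Of the 352 miRNA genes in that annotation, 9 had a hox gene as the nearest protein-coding gene on at least 1 side, and all 9 were loci of these entries. miR-10 loci bordered the hox4 and hox5 paralogs: mir-10c lay between hoxb5a and hoxb4a, and mir-10b-2 between hoxc5a and hoxc4a. mir-10b-1 lay between hoxd4a and hoxd9a, and mir-10a between hoxb5b and skap1, within the extent of hoxb1b. miR-196 loci sat near the hox9 to hox11 paralogs: mir-196b between hoxb10a and hoxb9a, mir-196a-1 between hoxc10a and hoxc9a, mir-196d between hoxa10b and hoxa9b, and mir-196c between hoxc11b and hoxc6b. mir-196a-2 lay between hoxa11a and hoxa5a, within the annotated extents of evx1 and hoxa9a. Other hox genes were also annotated across mir-10b-1 (hoxd3a), mir-10c (hoxb3a), and mir-10b-2 and mir-196a-1 (hoxc3a for both). Together they occupied 7 hox clusters, miR-10 in 4 and miR-196 in 5, and the hoxba and hoxca clusters held both.

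The exception to the label was mir-10d, which had 0 hox genes beside it. It lay between lnpk and mtx2. These genes flank the HoxD cluster in vertebrates, and zebrafish is known to have lost the hox genes of its second copy of that cluster while keeping the miRNA.

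**Figure D1:**
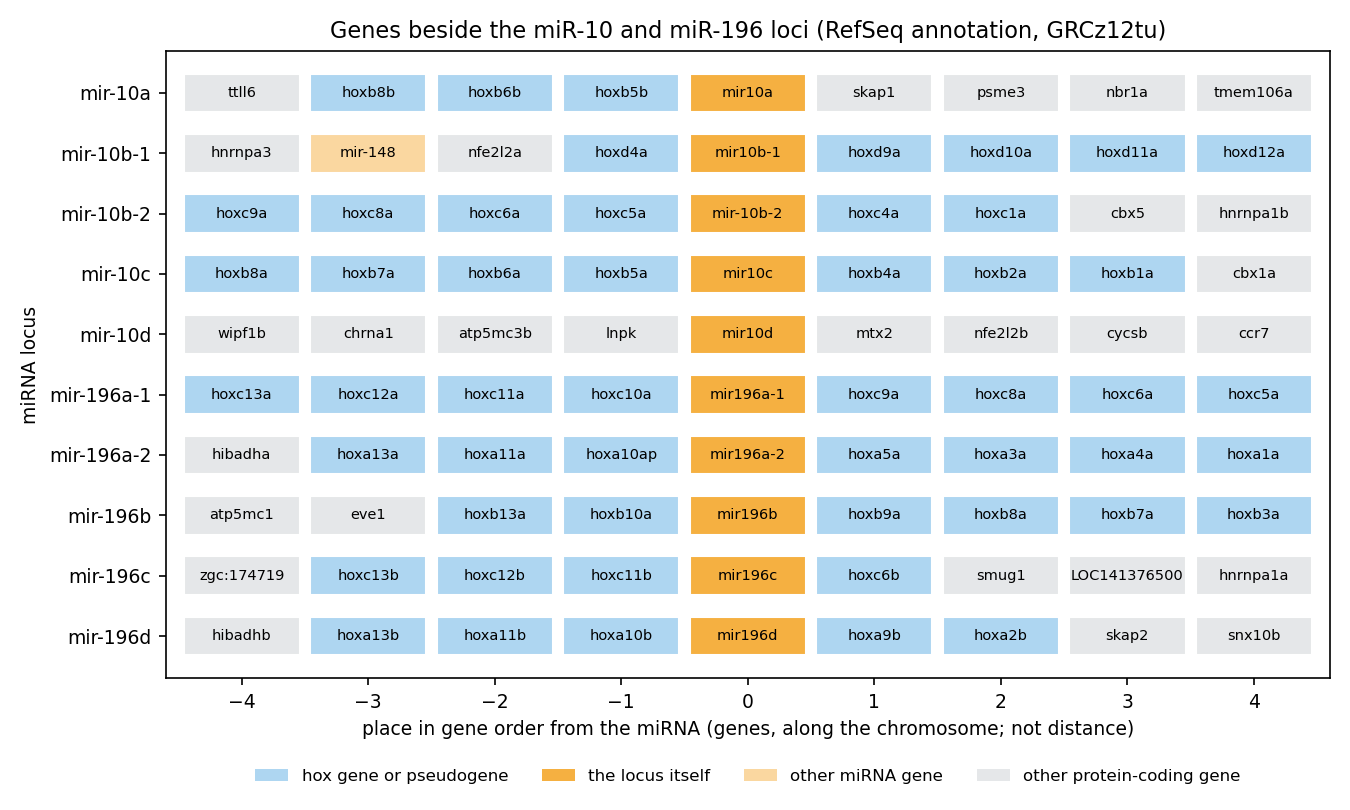
Genes in order along the chromosome on both sides of each of the 10 loci, with 4 genes shown per side; the axis counts genes and not distance, and annotated genes whose extent spans the miRNA are left out. Hox genes border 9 of the 10 loci, and mir-10d lies between lnpk and mtx2.

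The total behind the rpm is that of reads given to a listed miRNA, and all 173 values in each library were whole reads within 0.005 rpm. The Tbx5 morphant library held 580312 assigned reads and the MO-Ct library 1150157, 1.98 times as many. As labelled for whole embryos, miRNAs of several tissues were present in both libraries, among them miR-9 of the nervous system, miR-206 of muscle and miR-203b of epithelium, each the most abundant entry of its tissue list. Because each condition has 1 library, no difference below has a replicate check, and the 95% intervals cover counting error only.

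In the MO-Ct library, the 4 miR-10 entries made up 6.75% of all assigned reads (exact Clopper-Pearson interval 6.71 to 6.80%) and the 4 miR-196 entries 0.243% (0.234 to 0.252%). miR-10 reads were thus 27.8 times as many as miR-196 reads. In the Tbx5 morphant library the shares were 5.85% (5.79 to 5.91%) and 0.261% (0.248 to 0.274%), and the ratio was 22.4. In bulk embryos fewer cells expressing a miRNA and less of it per cell cannot be told apart.

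Among the miR-10 entries, miR-10c was the most abundant, at 19920 rpm in Tbx5 morphants against 24817 rpm in MO-Ct. miR-10b, in the same order, had 19521 and 21852 rpm. The intervals of these levels overlapped in the Tbx5 morphant library and did not in the MO-Ct library, so the lead of miR-10c over miR-10b, 1.14 times in the MO-Ct library, fell to 1.02 times. miR-10a followed with 13958 and 15449 rpm, and miR-10d with 5092 and 5432 rpm. These entries ranked 9th, 10th, 15th and 24th of 173, at the same places in both libraries. miR-10b joins 2 loci whose reads cannot be told apart. An equal split would give 9760 and 10926 rpm per locus, below miR-10a.

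The miR-196 entries were lower throughout. miR-196a had 1430 rpm in Tbx5 morphants against 1307 rpm in MO-Ct, and miR-196b had 788 and 684 rpm. Both were higher in the Tbx5 morphant library. miR-196c had 213.7 and 249.5 rpm and miR-196d 176 and 186 rpm, from as few as 102 reads. Their order was the same in both libraries, although the intervals of miR-196c and miR-196d overlapped in the Tbx5 morphant library. With an equal split over its loci, miR-196a (715 and 653 rpm per locus) would be close to miR-196b. miR-196c and miR-196d, whose loci are in the hoxcb and hoxab clusters, were 2.74 or more times below miR-196b in the MO-Ct library.

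**Figure D2:**
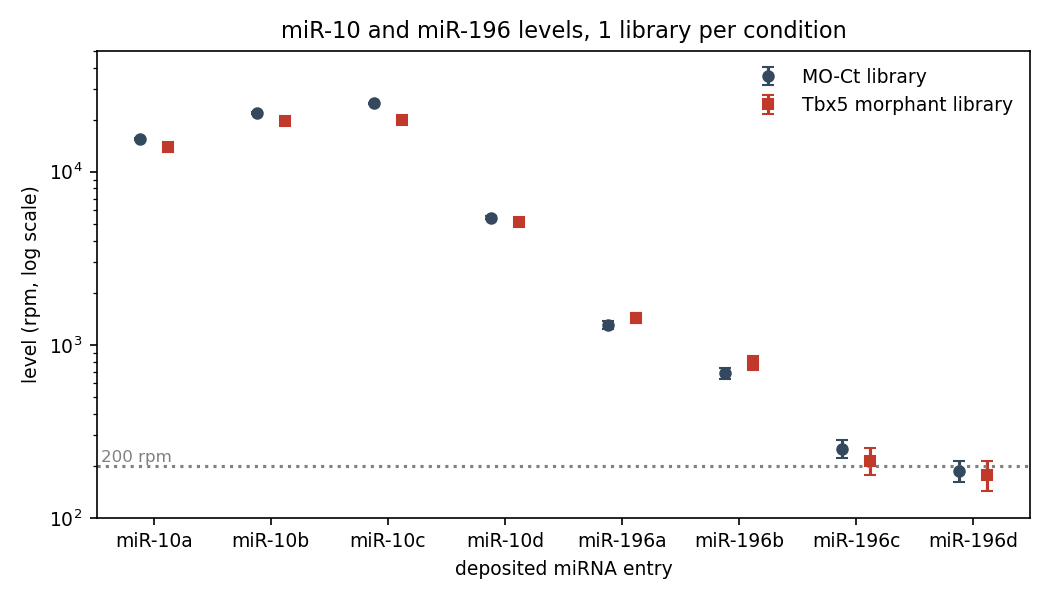
Level of each miR-10 and miR-196 entry in rpm (log axis) in the MO-Ct library (circles) and the Tbx5 morphant library (squares), with exact 95% counting intervals as bars. The miR-10 entries lie at 5092 rpm or more, miR-196d lies below 200 rpm in both libraries, and miR-196a and miR-196b are higher in the Tbx5 morphant library.

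Tbx5 depletion was compared with MO-Ct by the fold change (FC), the rpm of the Tbx5 morphant library over that of the MO-Ct library. miR-10c had a FC of 0.803 (95% interval 0.785 to 0.820), the lowest of the 8. miR-10b had 0.893 (0.874 to 0.913), miR-10a 0.903 (0.880 to 0.928) and miR-10d 0.937 (0.897 to 0.979). All 4 miR-10 intervals were below 1. Over all miRNAs above 0 in both libraries, 45.7% had such an interval, so this direction was common.

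In the miR-196 family the FC was 1.09 (1.00 to 1.19) for miR-196a and 1.15 (1.02 to 1.29) for miR-196b, both with intervals above 1, against 17.9% of all miRNAs. miR-196c had 0.856 (0.688 to 1.06) and miR-196d 0.945 (0.739 to 1.20). Their intervals included 1, and a difference of that size was not detectable at their depth.

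None of the 8 reached a FC of 1.8 in either direction, the fold used by the study, while 9.88% of the miRNAs were at least 1.8-fold lower and 1.85% at least 1.8-fold higher. These shares stood for 16 lower and 3 higher miRNAs, which became 11 and 6 with the libraries aligned on the median ratio described next. The study also required over 200 rpm and listed 8 miRNAs, 6 of them lower. miR-190b, which the study took up among its lower miRNAs, had 27.6 rpm in Tbx5 morphants and 104 rpm in MO-Ct. Neither value is over 200 rpm, so no such filter on these values would keep it. In this comparison a level over 200 rpm was required in each library, which may differ from the study's filter. Of the 107 miRNAs that met it, 3 were lower and 0 higher as deposited. They include 7 of the 8 miR-10 and miR-196 entries. The intervals of the 8 miR-10 and miR-196 entries ran from 0.688 at the lowest to 1.29 at the highest, so each stayed inside 1.8-fold.

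Libraries that differ in a few abundant miRNAs shift every other rpm, so a reference was taken from the 107 miRNAs with over 200 rpm in each library, whose median FC was 0.910 (log2 -0.14). Set against this median, miR-10c was lower, at 0.882 times (0.863 to 0.901), and was the 1 member whose interval lay below it, as 34.0% of all miRNAs had. miR-10a (0.993, 0.967 to 1.02), miR-10b (0.982, 0.960 to 1.00) and miR-10d (1.03, 0.986 to 1.08) had intervals that included the median. miR-196a, at 1.20 times the median (1.10 to 1.31), and miR-196b, at 1.26 times (1.12 to 1.42), lay above it, as 27.2% of all miRNAs did. Of the 107, 31 had a lower FC than miR-10c and 13 a higher FC than miR-196b. When the libraries were instead aligned on a trimmed mean, miR-10a moved to 1.02 and miR-10b to 1.00, and miR-10d was above 1 with either reference, so the lower level of these 3 entries depends on how the libraries are scaled.

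**Figure D3:**
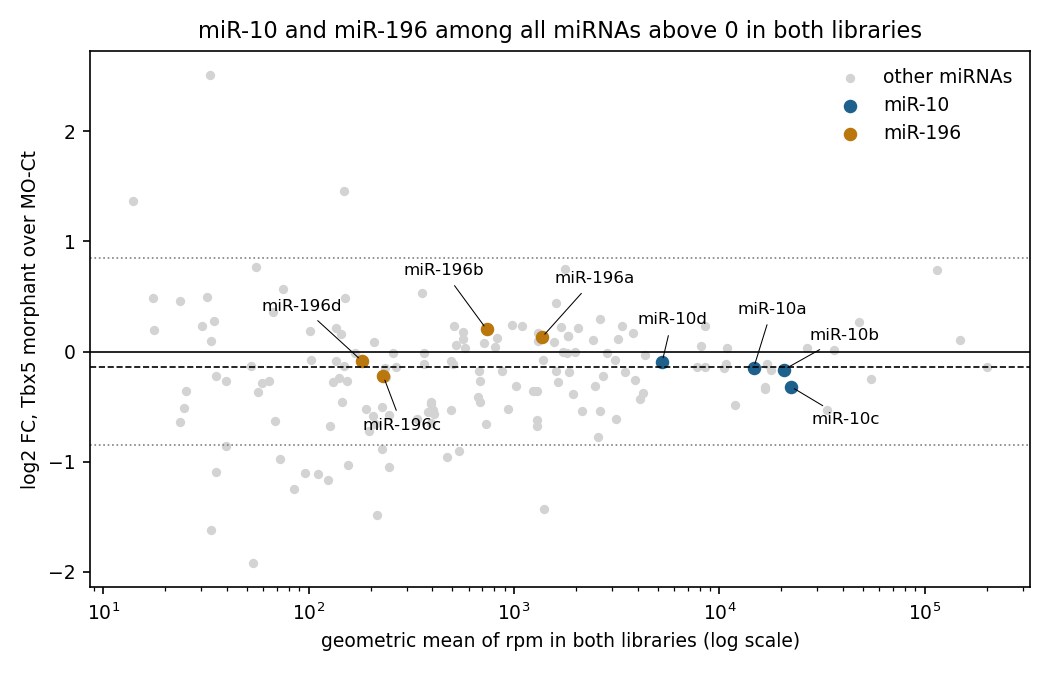
Log2 FC (vertical axis) against the geometric mean of the rpm of both libraries (log axis) for the 162 miRNAs above 0 in both, with the miR-10 and miR-196 entries in colour; the solid line is 0, the dashed line the median of -0.14 and the dotted lines 1.8-fold. The miR-10 entries lie at or below the median line apart from miR-10d, and miR-196a and miR-196b lie above 0.

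A comparison of entries with each other does not depend on that scaling. For 44 pairs of entries, the reads of both in each library were set against each other with Fisher's exact test (two-sided, p-values adjusted by Benjamini-Hochberg over the 44 pairs), so the p-values concern these libraries rather than the conditions. Such differences were common. Over all 13041 pairs of the 162 miRNAs, 49.4% passed with p-values adjusted over those pairs, against 21 of the 44. These pairs include entries with few reads, and the share among entries as deep as those of miR-10 was not computed. Within miR-10, 3 of 6 pairs passed, a share near that over all pairs, and all 3 were pairs of miR-10c. The FC of miR-10c was 0.856 times that of miR-10d (adjusted p = 5.31e-09, exact test). That of miR-10a was 1.13 times (adjusted p = 1.46e-10, exact) and that of miR-10b 1.11 times (adjusted p = 1.46e-10, exact) that of miR-10c. The other 3 pairs within miR-10 did not pass, with FC between 0.953 and 1.01 times each other. In the same reads, miR-10c fell from 36.7% to 34.1% of the miR-10 total, the interval of the first (36.4 to 37.1%) lying above that of the second (33.6 to 34.6%).

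Across the families, 8 of 16 pairs passed, a share near that over all pairs, and in these 8 the miR-10 entry was the lower. They were the 4 miR-10 entries against miR-196a and against miR-196b. The widest difference was necessarily that between the entries with the lowest and the highest FC. miR-10c had 0.697 times the FC of miR-196b (adjusted p = 2.49e-08, exact). Both loci lie in the hoxba cluster, but the miR-10 entries from outside that cluster were also lower than miR-196b, at 0.776 to 0.814 times. In the hoxca cluster, which holds mir-10b-2 and mir-196a-1, miR-10b had 0.816 times the FC of miR-196a (adjusted p = 3.11e-05, exact), each entry also containing reads of a locus in another cluster. 0 of the 8 pairs with miR-196c or miR-196d passed at 0.05 after adjustment. Within miR-196, 1 of 6 pairs passed: miR-196b had 1.34 times the FC of miR-196c (adjusted p = 0.0375, exact).

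Summed over the family, miR-10 had a FC of 0.866 (0.855 to 0.877) and miR-196 of 1.07 (1.01 to 1.14), and these intervals did not overlap. The miR-196 sum rests mostly on miR-196a and miR-196b, with 53.9% and 28.2% of the family's reads in the MO-Ct library. miR-196c and miR-196d had FC of 0.856 and 0.945, with intervals that included 1. How often the sums of other families differ was not computed. Reads of close family members could have been divided between names by an annotation that allowed 2 mismatches, which the sums avoid.

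miR-99 and miR-100 are the nearest relatives of miR-10 in mature sequence, and their genes lie outside the hox clusters. miR-100 had 1920 and 1737 rpm, a FC of 1.11 (1.03 to 1.19), and miR-99 had 601 and 530 rpm, a FC of 1.13 (0.991 to 1.30). Each of the 4 miR-10 entries had a lower FC than each of these, and all 8 such pairs passed, against 49.4% over all pairs. These 8 pairs reuse the same entries, so they are not 8 separate observations. The 49.4% counts either direction and includes pairs of entries with few reads, so it is not a matched reference. The ratios ran from 0.708 for miR-10c against miR-99 (adjusted p = 3.10e-06, exact) to 0.848 for miR-10d against miR-100 (adjusted p = 0.00056, exact). Set against the median FC used above, miR-99 lay at 1.25 times (1.09 to 1.42) and miR-100 at 1.21 times (1.13 to 1.31). The intervals of miR-10a, miR-10b and miR-10d included that median, and miR-10c lay below it. Of the 8 pairs of a miR-196 entry with miR-99 or miR-100, 0 passed with adjustment over the 44 pairs and 1 over all pairs. miR-196a had 0.990 times the FC of miR-100 and miR-196b 1.04 times. The ratios of miR-196c, 0.755 to miR-99 and 0.775 to miR-100 (adjusted p = 0.051 over the 44 and 0.049 over all pairs, exact), and of miR-196d, 0.833 and 0.855, lay near those of the miR-10 pairs but rested on few reads. With miR-99 or miR-100 as a common reference, a miR-10 and a miR-196 entry differ by the ratio of their own FC. Those are the pairs across the families given above, of which 8 of 16 passed, all of them with miR-196a or miR-196b.

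miR-125 is encoded next to miR-100 at shared loci in many animals. miR-125b had a FC of 1.10 (1.02 to 1.19), miR-125c of 1.36 (1.26 to 1.47), both with intervals above 1, and miR-125a had 1.04 (0.905 to 1.20), an interval that included 1. The 5 entries of miR-99, miR-100 and miR-125 had a median log2 FC of 0.14, 3 of them with an interval above 1 (17.9% over all miRNAs). The median was -0.15 over the 4 miR-10 entries, 0.02 over the 4 miR-196 entries and -0.16 over the 162 miRNAs.

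**Figure D4:**
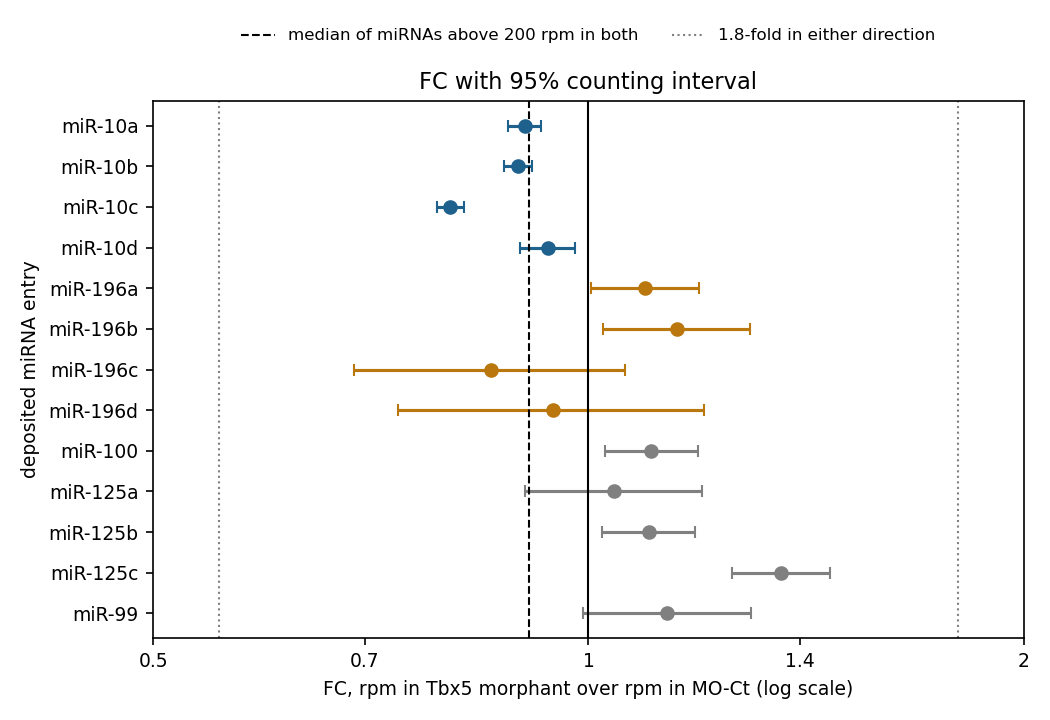
FC (log axis) of each miR-10, miR-196, miR-99, miR-100 and miR-125 entry, with 95% counting intervals as bars; the solid line is 1, the dashed line the median of 0.910 and the dotted lines 1.8-fold in either direction. The 4 miR-10 intervals lie left of 1, those of miR-196a and miR-196b right of 1, and all stay inside the 1.8-fold lines.

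Among miRNAs with over 200 rpm in each library, those whose FC was nearest to that of each entry were listed by the absolute difference of log2 FC over the 2 libraries. For miR-10c these were miR-725, miR-25, miR-148, miR-217 and miR-16b, with FC from 0.780 to 0.805. For miR-10b they were miR-30e, miR-216a, miR-126, miR-133c and miR-30d, the last 2 of which were also among the nearest to miR-10a. For miR-196a they were let-7d, miR-125b (1.10), miR-100 (1.11), let-7a and miR-200c. For miR-196b they were miR-181c, miR-92b, miR-99 (1.13), miR-22a and miR-141. Such likeness was not rare, as 16 of the 106 other miRNAs lay within 0.1 log2 units of miR-10c, 25 of miR-10a, 22 of miR-196a and 20 of miR-196b. Among miRNAs of similar level in the MO-Ct library, miR-10c and miR-10b lay between miR-1 (FC 1.02) and miR-30e (0.893). miR-196b had miR-458 (1.06) just above and miR-19a (0.516) just below.

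Markers of fin and cartilage, nervous system and muscle were set beside these values. For reference, 45.7% of all miRNAs had an interval below 1 and 17.9% above 1. The fin and cartilage entries had a summed level of 1978 rpm in Tbx5 morphants against 2249 rpm in MO-Ct. Of these, miR-140, which acts in cartilage, had a FC of 0.753 (0.662 to 0.855) and was the 1 of 3 with an interval below 1, miR-199 having 0.947 (0.868 to 1.03) and miR-214 0.912 (0.566 to 1.44). In the nervous system list 6 of 7 entries had an interval below 1, with a median log2 FC of -0.57, although the summed level was 193603 against 214455 rpm. The exception was miR-138, with a FC of 1.12 (0.851 to 1.46). These entries include miR-153a, miR-153b and miR-153c of the same family, and miR-219, which the study had taken up as lower. The list was set with earlier results known, so this count depends on which miRNAs were named. The muscle list had 1 of 5 below and 2 above, with a median log2 FC of -0.01 and a summed level of 183699 against 172210 rpm. The part of these tissues in the miR-10 and miR-196 values was not tested.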

How the data were processed

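Small RNA of 18 to 33 nt was sequenced on an Illumina GAIIx from 1 library per condition. The authors trimmed reads in the CLC workbench, kept sequences with at least 30 occurrences, annotated them to zebrafish miRBase v16.0 with at most 2 mismatches and 2 additional bases at each end, and deposited 1 rpm value per miRNA and library. In the recovered reads 19 entries of the Tbx5 morphant library and 14 of MO-Ct held between 1 read and the stated minimum, and 1 entry held 6 reads in all, so how that minimum was applied is not known. Every miR-10 and miR-196 entry held at least 102 reads. Names are those of hairpins, and the arms were not separated.

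Library totals were recovered as the smallest total between 50000 and 3000000 for which all 173 rpm values were whole reads within 0.005 rpm. FC is the ratio of deposited rpm without a pseudocount; its 95% interval was converted from a Clopper-Pearson interval, for the share that the morphant reads made up of an entry's reads. It covers counting error only and treats reads as independent, which PCR copies are not, so it can be too narrow. With 1 library per condition no test of the conditions was made, and a count model needing replicates was not run. Pairs of entries were compared by Fisher's exact test, which also treats reads as independent, so its p-values can be too small.

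Every miR-10, miR-196, miR-99, miR-100 and miR-125 entry was named, with the 5 nearest in FC and the 3 above and below in level of each member, of which examples are given. The marker lists were nervous system (miR-9, miR-124, miR-138, miR-153, miR-219), muscle (miR-1, miR-133, miR-206), epithelium (miR-200, miR-203, miR-205, miR-429), fin and cartilage (miR-140, miR-199, miR-214), lens and sensory (miR-96, miR-182, miR-183, miR-184, miR-204), blood (miR-144, miR-451) and miR-430. Epithelium had 2 of 8 entries with an interval below 1 and 2 above, lens and sensory 3 and 1 of 5, blood 1 and 0 of 2, and miR-430 3 and 0 of 3 above 0 in both libraries. Members and lists were chosen with earlier results of these data known. Alternatives were pseudocounts of 1 and 10 rpm, rescaling by the median ratio or by a trimmed mean (30% of log ratios and 5% of levels at each end), removal of the 3 most abundant miRNAs or of the entries themselves, summed families, Wilson intervals, and other folds and filters. Steps were tested on simulated data. Gene order came from RefSeq (GRCz12tu); 294 of 312 named loci matched. Scripts ran in Python 3.11.15, with SciPy 1.17.1 and NumPy 2.4.6 for intervals and tests, pandas 2.3.3, and plots from Matplotlib 3.10.9.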

Additional observations from a re-analysis of the deposited data

How the results depend on the processing

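No paired analysis was possible because only 1 library was made per condition, which also leaves no replicate to omit. A common rescaling moves all FC together, so it bears on directions against 1 and not on the pairs. With libraries aligned on the median ratio, on the trimmed mean, and after removal of the 3 most abundant miRNAs, the FC were, in this order, 0.993, 1.02 and 0.996 for miR-10a, 0.982, 1.00 and 0.985 for miR-10b, 0.882, 0.903 and 0.885 for miR-10c, and 1.03, 1.05 and 1.03 for miR-10d, so that miR-10a and miR-10b crossed 1 with the trimmed mean and miR-10d with all 3. miR-196a had 1.20, 1.23 and 1.21, and miR-196b had 1.29 with the trimmed mean. The sums had 0.952, 0.974 and 0.954 for miR-10, 1.18, 1.21 and 1.18 for miR-196, 0.960, 0.982 and 0.962 for both families (0.873 as deposited), and 1.22, 1.25 and 1.23 for miR-99 with miR-100 (1.11 as deposited). The median log2 FC of miR-99, miR-100 and miR-125 became 0.28, 0.31 and 0.28. With rpm summed over the family, every entry takes the FC of its family by construction, 0.866 for each miR-10 entry and 1.07 for each miR-196 entry. Among the miR-196 entries only miR-196c thereby left its counting interval (0.688 to 1.06). Of 56 alternatives run for the 8 FC, 35 stayed within the counting interval and the others left it. The 35 include all 16 with a pseudocount, which moved no FC by more than 0.65% and so could hardly leave it. Leaving the entries' own reads out of the total also changed these FC little.

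Of the miRNAs, 16 were at least 1.8-fold lower and 3 higher. Above 200 rpm in both libraries there were 3 and 0, without a filter 27 lower, at 1.5-fold 28 and 6, and after rescaling by the median ratio 11 and 6. These follow from the thresholds and the rescaling themselves. 0 of the 8 miR-10 and miR-196 entries were past the fold at 1.5, 1.8 or 2. Against the median FC, a reference chosen after seeing the data, 1 entry was lower where 4 were lower against 1. Adjustment of the pairs over all 13041 pairs, also added after seeing the data, gave 21 of 44 in place of 20, the addition being miR-196c against miR-100. With families summed, miR-10 with miR-196 had 0.785 times the FC of miR-99 with miR-100, against a median of 0.822 over their 16 pairs. That sum is mostly miR-10, which held 33943 of its 35456 reads in the Tbx5 morphant library and 77693 of 80484 in MO-Ct. miR-196 alone had a FC of 1.07, beside 1.11 for miR-99 with miR-100, and 0 of the 8 miR-196 pairs passed over the 44. The 102 reads of miR-196d in Tbx5 morphants set the widest interval, 1.63 times from end to end.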
